A study of Mus musculus with 6 samples.

Results

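Neuronal cytoskeleton and axon growth genes were compared between wildtype and Neurod1 knockout pineal glands of newborn mice. The 33 genes encode tubulins and doublecortins, microtubule-associated proteins, stathmins, neurofilaments, collapsin response mediators, adhesion molecules and other proteins of growing neurites. They were chosen by function as a list of named genes. A gene was represented by the array probe set of highest mean log2 signal among probe sets that the platform annotation assigns to exactly 1 gene. All 33 were found, out of 18193 named genes, with 81 probe sets between them.

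The samples were 6 pools of whole pineal glands taken by day from mice of strain 129 at postnatal day 0, housed under a cycle of 12 h light and 12 h dark. There were 3 wildtype pools and 3 pools homozygous for a Neurod1 knockout, each of 3 glands and each run on 1 Affymetrix array after a single round of RNA amplification. Neither the deleted region of Neurod1, nor litters, nor the sex of the animals is given in the labels. Pools of the same number in both genotypes carry the same date in their labels. Pooled whole glands give 1 value per pool, so fewer cells of a type and less RNA per cell cannot be told apart.

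Microtubules in neurons are built from tubulin dimers, bundled by microtubule-associated proteins and doublecortins, and kept dynamic by stathmins, which bind free tubulin. Neurofilaments set the calibre of axons, and collapsin response mediators carry guidance signals to the cytoskeleton of the growth cone. Pinealocytes derive from neuroepithelium and extend processes, and the gland also receives axons whose cell bodies lie elsewhere. Neurod1 is a transcription factor with a basic helix-loop-helix domain, active in photoreceptors, neurons and endocrine cells, and it binds E-box sequences.

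The targeted gene followed the labels. Neurod1 had signals of 9027, 9301 and 7519 in wildtype pools 1, 2 and 3 and of 390.2, 524 and 122 in the knockout pools. Its log2 difference was −4.67 (limma adjusted p = 0.0362), although that call ended when wildtype pool 1, 2 or 3 or knockout pool 1 was left out (adjusted p = 0.621, 0.316, 0.376 and 0.0985). Pinealocyte markers were present: Otx2, a homeobox gene of pineal identity, had signals from 9618 to 15178, and 13 of 14 listed markers passed the filter on dim probe sets. Otx2 is also on a list of choroid plexus markers, whose sums differed widely between pools. They were 15515, 56242 and 87555 in wildtype pools 1, 2 and 3 and 102270, 83113 and 12742 in the knockout pools. Ttr of that list alone ran from 685 to 87464. The part of choroid plexus in the cytoskeleton and axon growth values was not tested. Knockout pool 1 stood apart. Relative to the average array, its median log2 value for 128 ribosomal protein and respiratory chain genes was 1.20, against −0.67 to 0.10 in the other pools.

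As a group the cytoskeleton and axon growth genes were split evenly in direction between the genotypes. Of the 33 genes, 28 passed a filter that removed the dimmest 40% of probe sets. Differences are knockout minus wildtype on the scale log2(signal + 38.6), which understates the change of dim genes. Among the 28 tested genes 14 had a lower and 14 a higher mean in knockout, and their median log2 difference was 0.00. Over all 12797 genes tested, 46.8% had a lower mean and the median was 0.03. When the log2 values of each array were centred on the median, 19 of 28 genes were lower, beside 62.3% of all genes, and both medians moved alike, to −0.14 and −0.11.

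At an adjusted p under 0.05, limma called 0 of the 28 genes, and 0.00781% of all genes tested, which is Neurod1 alone. At an unadjusted p under 0.05, 1 of the 28 was lower and 0 were higher, against 3.34% of all genes (1.37% lower and 1.98% higher). The pools of the 2 genotypes did not overlap for 3 of the 28. Map2 and Dpysl3 were below in every knockout pool, as 4.33% of all genes were, and Dpysl2 was above, as 5.77% were. Counts of 2 and 1 among 28 are near those shares. The 95% intervals of the limma fit lay within 1 log2 unit of 0 for 11 of the 28 genes. For the other 17 the interval reached past 1 log2 unit in at least 1 direction.

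**Figure D1:**
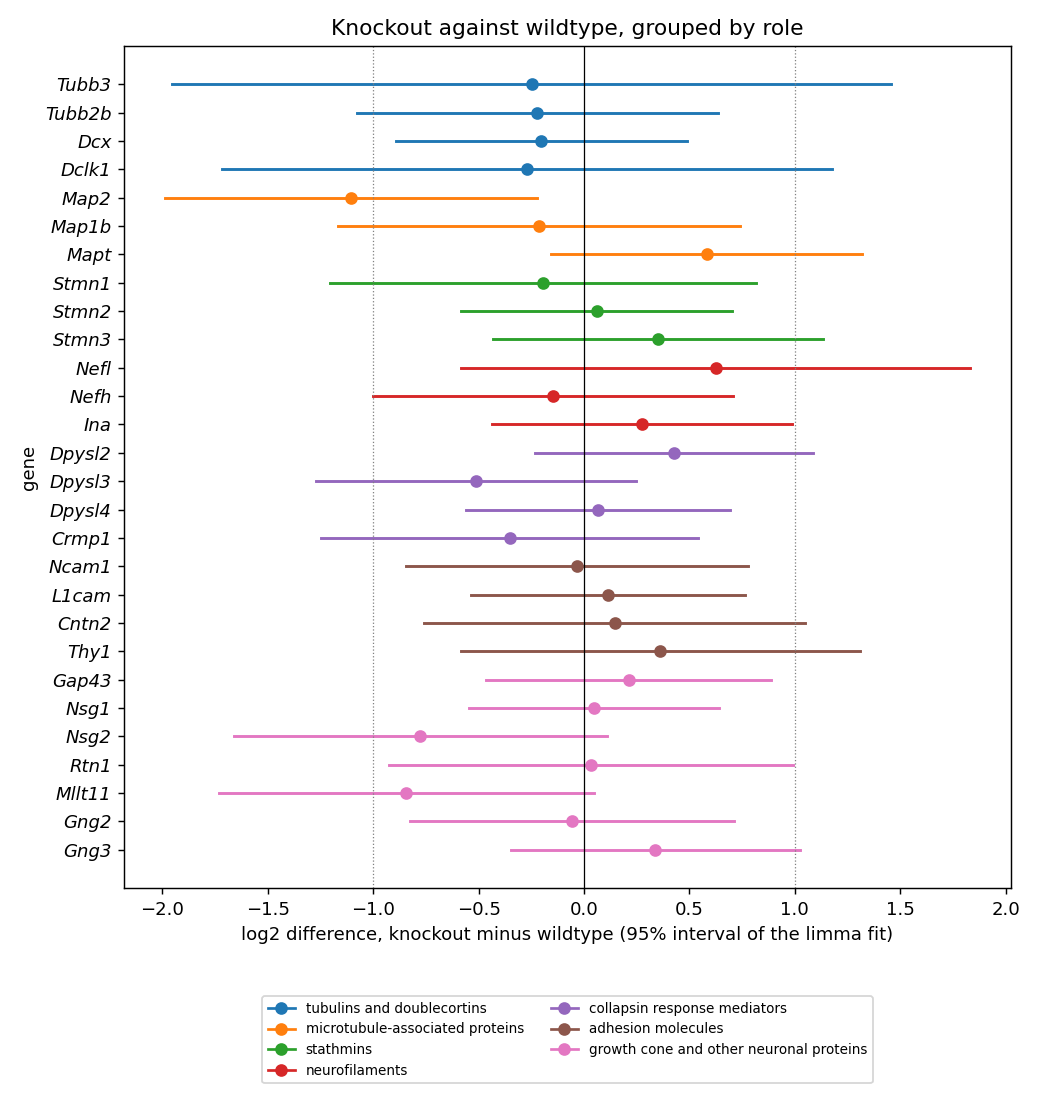
Log2 difference between knockout and wildtype (horizontal axis) for the 28 tested genes, coloured by role. Points are differences of group means over 3 pools each, bars are 95% intervals of the limma fit, and dotted lines mark 1 log2 unit; the interval of Map2 is the only 1 of the 28 that leaves out 0.

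Sequence upstream of Map2, Map1b and Crmp1 is shown because a factor that binds E-boxes was removed in these animals. Map2 and Crmp1 were lower within every pool number, and Map1b is another microtubule-associated gene of the list. These genes were picked after their values were seen. Each sequence is from RefSeq on build GRCm38.p6, printed 5′ to 3′ on the strand of the gene, and holds only bases outside the annotated span of the gene. For Map2 these are 123 bases at chr1:66175079-66175201 on the plus strand, for Map1b 250 bases at chr13:99516603-99516852 on the minus strand, and for Crmp1 250 bases at chr5:37241808-37242057 on the plus strand. Capitals mark CAGATG or its reverse complement CATCTG, an E-box that Neurod factors are known to bind.
Map2: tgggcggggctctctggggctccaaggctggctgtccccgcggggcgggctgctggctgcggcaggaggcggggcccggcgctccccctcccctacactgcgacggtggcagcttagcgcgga
Map1b: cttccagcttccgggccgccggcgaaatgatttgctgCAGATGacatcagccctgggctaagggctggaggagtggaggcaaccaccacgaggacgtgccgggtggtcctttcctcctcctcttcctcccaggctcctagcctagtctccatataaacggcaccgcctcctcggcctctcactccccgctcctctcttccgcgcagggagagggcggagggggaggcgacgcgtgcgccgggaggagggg
Crmp1: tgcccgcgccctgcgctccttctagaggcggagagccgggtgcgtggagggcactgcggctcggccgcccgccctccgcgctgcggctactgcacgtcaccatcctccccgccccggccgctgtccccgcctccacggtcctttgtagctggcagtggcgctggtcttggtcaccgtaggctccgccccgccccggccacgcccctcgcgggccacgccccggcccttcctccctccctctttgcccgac

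The Map2 and Crmp1 sequences held no CAGATG, no CATCTG and no match to the general E-box CANNTG, and that of Map1b held 1 CAGATG, its only CANNTG. A second Crmp1 window in the table, which lies inside the gene and is not printed, did hold CANNTG. Their G and C content was 77.2%, 66.4% and 75.6% for Map2, Map1b and Crmp1. The promoter table matched 17 of the 33 genes, with 24 windows of 250 bases before a listed start, of which 15 lay partly or wholly inside the span of a longer model of the same gene. CAGATG or CATCTG occurred in 6 of the 24, from L1cam, Map1b, Nsg2, Rtn1 and Stmn3, against 14.4% of 32851 windows of the same length over all genes. CANNTG, which includes the former motif, occurred in 58.3% of the 24 windows and 66.2% of all. Both motifs were searched on both strands, and a match is a description of the letters in these windows.

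Tubulin and doublecortin genes all had slightly lower means in knockout, while their pools overlapped between the genotypes. The log2 differences of Tubb3, Tubb2b, Dcx and Dclk1 lay between −0.27 and −0.20, with a median of −0.24. Tubb3, the beta-tubulin gene most used as a neuronal marker, had signals of 544, 256 and 49.1 in wildtype pools 1, 2 and 3 and of 497, 76.7 and 107 in the knockout pools. Both pools numbered 1 were high, and the genotypes overlapped over nearly the whole range. Its standard error (SE) was 0.75, and the 95% interval ran from −1.95 to 1.46. The difference was −0.93 without knockout pool 1 and turned to 0.37 without wildtype pool 1.

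Tubb2b, a beta-tubulin gene of young neurons, had signals of 10645, 7250 and 6207 in wildtype and of 10305, 5916 and 4938 in knockout. Again both pools numbered 1 were highest, and knockout was lower within each number, by log2 differences of −0.05, −0.29 and −0.33. The Tubb2b difference was −0.00 without wildtype pool 1 or without knockout pool 3, and −0.53 without knockout pool 1. Dcx, which encodes the doublecortin of migrating neurons, had signals of 445, 240.3 and 228 in wildtype and of 262, 256 and 228 in knockout. Wildtype pool 1 alone was high, and the Dcx difference of −0.20 turned to 0.07 without it. A second Dcx probe set, 1418141_at, had 198 to 490 in wildtype and 114 to 251 in knockout, a log2 difference of −0.79, and was lower within all 3 numbers (−0.63, −0.87 and −0.88). Its mean signal of 293 was above the 276.3 of the chosen probe set, which was higher only as a mean of log2 values. On 1418141_at both pools numbered 1 were the lowest, at 198 and 114.

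Dclk1, a kinase with doublecortin domains, differed widely between pool numbers. Its signals were 8286, 16878 and 23976 in wildtype pools 1, 2 and 3 and 4452, 18730 and 22846 in the knockout pools of the same numbers. Both pools numbered 1 were the lowest and both numbered 3 the highest. Another probe set of the gene, 1424270_at, followed the same course, with 1057, 2605 and 5049 in wildtype and 646, 2337 and 4621 in knockout. The probe set 1436659_at ran the other way, with its lowest signals, 2636 and 2424, in the pools numbered 3. Of the 7 other Dclk1 probe sets past the filter, means in knockout were lower for 4 and higher for 3, and the difference of −0.27 turned to 0.47 without knockout pool 1. In the pools numbered 1 the list of habenula and thalamus markers also had its lowest median levels. They were −0.79 and −0.29 relative to the 6 arrays against −0.14 to 0.71 elsewhere. Single markers ran both ways. Rora was lowest in both pools numbered 1, at 677.5 and 471. Tac1 was highest in knockout pool 1, at 674.5, and Nr4a2 was lowest in the pools numbered 2, at 1385 and 1440. The part of such neurons in the Dclk1 values was not tested.

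Among microtubule-associated proteins, Map2 had the largest difference of all 28 genes. Map2, which stabilises microtubules in dendrites, had signals of 8925, 4358 and 3953 in wildtype pools 1, 2 and 3 and of 2586, 3094 and 1883 in the knockout pools. Every knockout pool lay below every wildtype pool, and wildtype pool 1 stood well above the rest. The means were 5745 ± 2761 and 2521 ± 608 (SD, n = 3), a ratio of 2.28. The log2 difference was −1.11 (SE 0.39, 95% interval −1.99 to −0.22), and within numbers 1, 2 and 3 it was −1.77, −0.49 and −1.05. In limma its unadjusted p was 0.0197 and its adjusted p 0.998, with 138 genes ranked above it. With the replicate block its adjusted p was 0.768.

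The probe sets of Map2 differed from each other. The second brightest, 1440699_at, had 6210, 3336 and 3392 in wildtype and 1181, 3753 and 2849 in knockout. There the gap came from the pools numbered 1, with log2 differences of −2.36, 0.17 and −0.25 within the numbers, and the genotypes overlapped. The third, 1421328_at, had 103 to 216 in wildtype and 137 to 223 in knockout, a log2 difference of 0.05. For the chosen probe set the difference was −0.74 without wildtype pool 1, with an unadjusted p above 0.05, as also without knockout pool 3.

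The other microtubule-associated genes overlapped between the genotypes. Map1b, which acts in growing axons, had signals of 1590, 4453 and 3808 in wildtype and of 2091, 2565 and 3217 in knockout, a log2 difference of −0.21 (SE 0.42, 95% interval −1.17 to 0.74), with both pools numbered 1 lowest. The Map1b difference was −0.66 without wildtype pool 1 and turned to 0.07 without wildtype pool 2. Mapt, the gene of the axonal protein tau, had 179, 172 and 304 in wildtype and 487, 283 and 274 in knockout, a log2 difference of 0.58 (SE 0.33). Its differences were 1.27, 0.61 and −0.13 within the numbers, and 0.34 without knockout pool 1. Map6, whose product makes microtubules stable in the cold, was below the filter, with signals from 15.5 to 160.5 over the 6 pools.

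Stathmin genes differed from each other in direction. Stmn1, which encodes the stathmin of dividing and young cells, had signals of 20709, 24865 and 16040.0 in wildtype and of 32649, 17316 and 9732 in knockout. The knockout pools thus held both the highest and the lowest value, and the log2 difference of −0.19 (SE 0.45) became −0.64 without knockout pool 1 and 0.23 without knockout pool 3. The dimmer Stmn1 probe set, 1448113_at, had the opposite sign (0.36). Stmn2, a stathmin of growth cones, had signals from 283 to 330.5 in wildtype and from 227 to 424 in knockout, and its difference was 0.06 (SE 0.28). Stmn3, another neuronal stathmin, had 233 to 334 and 219 to 554, with a difference of 0.35 (SE 0.35). Stmn4 was below the filter at 13.7 to 53.6.

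Among neurofilament genes, 1 knockout pool set apart the light chain. Nefl had signals of 135, 81.1 and 79.9 in wildtype and of 138, 69.3 and 436 in knockout. Knockout pool 3 stood far above the rest, and the other knockout pools lay within or near the wildtype range. The second Nefl probe set, 1426255_at, was also highest in that pool, at 321, and reached 247 in knockout pool 1. The Nefl difference was 0.62 (SE 0.53), and 0.03 without knockout pool 3. Pou4f1, a factor of habenula and sensory neurons, was 818 in knockout pool 3 and 74.1 to 162 elsewhere. Other markers of the habenula and thalamus list ran both ways there. Tcf7l2 and Rora were also highest in knockout pool 3, at 4350 and 4505. Tac1 was 202 there against 674.5 in knockout pool 1, and Slc17a6 was 10739 against 15199 in wildtype pool 3. The part of such neurons in the Nefl value was not tested.

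The other filament genes overlapped between the genotypes. Nefh, the heavy chain, had signals from 118 to 191 in wildtype and from 92.5 to 228 in knockout, a log2 difference of −0.15 (SE 0.38). Ina, which encodes alpha-internexin of young axons, had 427, 608 and 565 in wildtype and 976, 512 and 538 in knockout. Knockout pool 1 alone was high, and the Ina difference of 0.27 (SE 0.31) became −0.01 without it. Of its other probe sets, 1448991_a_at had a difference of −0.26 and 1448992_at of 0.18. Nefm, the medium chain, was below the filter at 37.2 to 151.

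Collapsin response mediators held the pair of genes with opposite, non-overlapping values. Dpysl3, a mediator of young neurons, had signals of 8885, 8932 and 11010.1 in wildtype and of 4657, 7223 and 8874 in knockout. All knockout pools were below all wildtype pools, but the gap between the nearest pools was narrow, at 8874 against 8885. The log2 difference was −0.51 (SE 0.34, 95% interval −1.27 to 0.24) and the limma adjusted p 0.998. Leaving out knockout pool 1 brought Dpysl3 to −0.25, and leaving out knockout pool 3 brought it to −0.72. The probe set 1415877_at of Dpysl3 was lower within all 3 numbers too, at −1.11, −0.73 and −0.58, whereas 1438789_s_at had a difference of 0.06. Dpysl2, which binds tubulin dimers and promotes axon formation, had 16655, 22561 and 23543 in wildtype and 30744, 25758 and 27214 in knockout. Its log2 difference was 0.43 (SE 0.29, 95% interval −0.23 to 1.09; limma adjusted p = 0.998).

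The remaining mediators overlapped. Crmp1 had signals of 722, 402 and 322 in wildtype and of 595, 242 and 288 in knockout. It was lower in knockout within each number, by −0.26, −0.65 and −0.14, with both pools numbered 1 high. The Crmp1 difference of −0.35 (SE 0.40) was −0.04 without wildtype pool 1 and −0.71 without knockout pool 1. Dpysl4 had the smallest spread of the 28 genes, an SD of 0.15 over the 6 arrays on the log2 scale, with signals from 169 to 224 and a difference of 0.07. Tubb3 had the largest spread, 1.16. Dpysl5 was below the filter at 4.0 to 64.9.

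**Figure D2:**
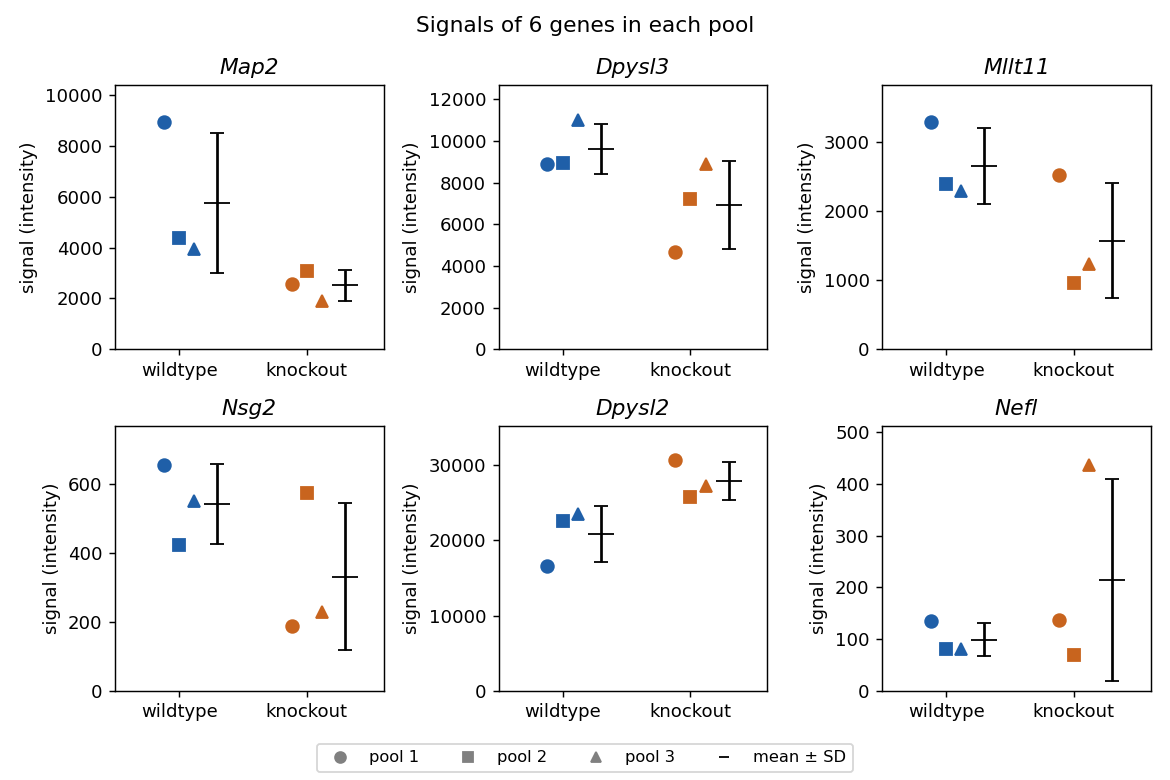
Probe set signal (linear intensity, vertical axes from 0) of 6 genes in each wildtype and knockout pool; symbols give the pool number, and black marks give mean ± SD of 3 pools. Genotypes do not overlap for Map2, Dpysl3 and Dpysl2, and knockout pool 3 stands alone for Nefl.

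Adhesion genes of axons had log2 differences between −0.03 and 0.36. Ncam1, the neural cell adhesion molecule, had signals of 8307, 9582 and 5650.3 in wildtype and of 5271, 9858 and 8054 in knockout, a difference of −0.03 (SE 0.36). Its probe sets 1426865_a_at and 1439556_at had differences of 0.21 and 0.03. L1cam, an adhesion molecule of axon bundles, had 346 to 420.1 in wildtype and 298 to 576 in knockout (0.11, SE 0.29). Cntn2, an axonal contactin, had 124 to 228 and 96.9 to 293 (0.14, SE 0.40). Thy1, a surface protein anchored in the membrane of neurons and some other cells, had 74.9 to 236 and 131 to 209 (0.36, SE 0.42). For none of these 4 genes did the genotypes separate.

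Mllt11 and Nsg2 had the next largest differences after Map2. Mllt11, which encodes a small protein of developing neurons, had signals of 3291, 2390 and 2290.5 in wildtype and of 2521, 962 and 1234 in knockout. Knockout pool 1 lay among the wildtype pools and the other knockout pools lay below them. The log2 difference was −0.84 (SE 0.39, 95% interval −1.73 to 0.05), and −0.38, −1.28 and −0.87 within the numbers. Its limma adjusted p was 0.998, and 0.768 with the replicate block. Leaving out knockout pool 1 gave −1.24, and leaving out knockout pool 2 gave −0.56. The dimmer Mllt11 probe set, 1416314_at, had a difference of −0.23, with −1.57, 0.65 and 0.23 within the numbers.

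Nsg2, which encodes an endosomal protein of neurons, had signals of 655, 422 and 550.1 in wildtype and of 189, 575 and 230 in knockout (log2 difference −0.78, SE 0.39). Knockout pool 2 lay within the wildtype range and was higher than its wildtype counterpart, by 0.41 within number 2 against −1.61 and −1.13 within numbers 1 and 3. The Nsg2 difference was −1.21 without knockout pool 2, −0.50 without knockout pool 1, and turned to 0.23 with array weights. Its relative Nsg1 had 573 to 730 in wildtype and 540.3 to 752 in knockout, a difference of 0.05 (SE 0.26).

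The other genes of this kind overlapped between the genotypes in their chosen probe sets. Gap43, the growth cone protein gene, had signals of 324, 333 and 205 in wildtype and of 447, 281 and 289 in knockout, a log2 difference of 0.21 (SE 0.30). Rtn1, a reticulon of the endoplasmic reticulum, had 570.5, 192 and 204 in wildtype and 397, 322 and 196 in knockout (0.04, SE 0.42), and its difference was 0.49 without wildtype pool 1. Gng2, a G protein gamma subunit, had 604 to 1347 and 716 to 1052 (−0.06, SE 0.34), while its second probe set, 1428157_at, had 275 to 377 in wildtype and 105 to 274 in knockout without overlap (−0.64). Gng3, a neuronal gamma subunit, had 198 to 331 and 238 to 404 (0.34, SE 0.30). Uchl1, a ubiquitin hydrolase abundant in neurons, was below the filter, with 46.8 to 111 in wildtype and 24.4 to 52.8 in knockout.

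Some genes were alike in pools of the same number. Both pools numbered 1 were the 2 highest of the 6 for 8 of the 28 genes (Tubb3, Tubb2b, Dcx, Nefh, Crmp1, Rtn1, Mllt11 and Gng2), which is 28.6%, against 19.0% of all genes tested. They were the 2 lowest for Dclk1 and Map1b, 7.14% against 10.3%. On the second Dcx probe set, 1418141_at, which was not chosen, they were also the 2 lowest. For number 2 both pools were the 2 highest for Ncam1 and the 2 lowest for Cntn2, each 3.57%, against 3.32% and 3.88% of all genes. For number 3 they were the 2 highest for Dclk1 (3.57% against 10.4%) and the 2 lowest for Dcx, Stmn1 and Gng2 (10.7% against 15.9%). Knockout pool 1 held the highest value of 11 of the 28 genes, 39.3%, beside 32.6% of all genes, and wildtype pool 1 of 9, 32.1% beside 20.1%. Knockout pool 2 held the lowest value of 8, 28.6% beside 11.6%. These counts were made after the values were seen and describe the arrays. In the same pools numbered 1 the sum of pinealocyte markers was 65765 in wildtype and 58613 in knockout against 40550 to 56231 elsewhere. The median level of that list, relative to the 6 arrays, did not set these pools apart. Knockout pool 1, at 0.02, lay below wildtype pool 2, at 0.13, and wildtype pool 1 had 0.16. Single markers ran both ways in the pools numbered 1. Tph1 of serotonin synthesis was 15095 and 12501 against 2755 to 8881 elsewhere. The synaptotagmin gene Syt4 was 2306 and 3405 against 5473 to 10342. Their part in these values was not tested.

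**Figure D3:**
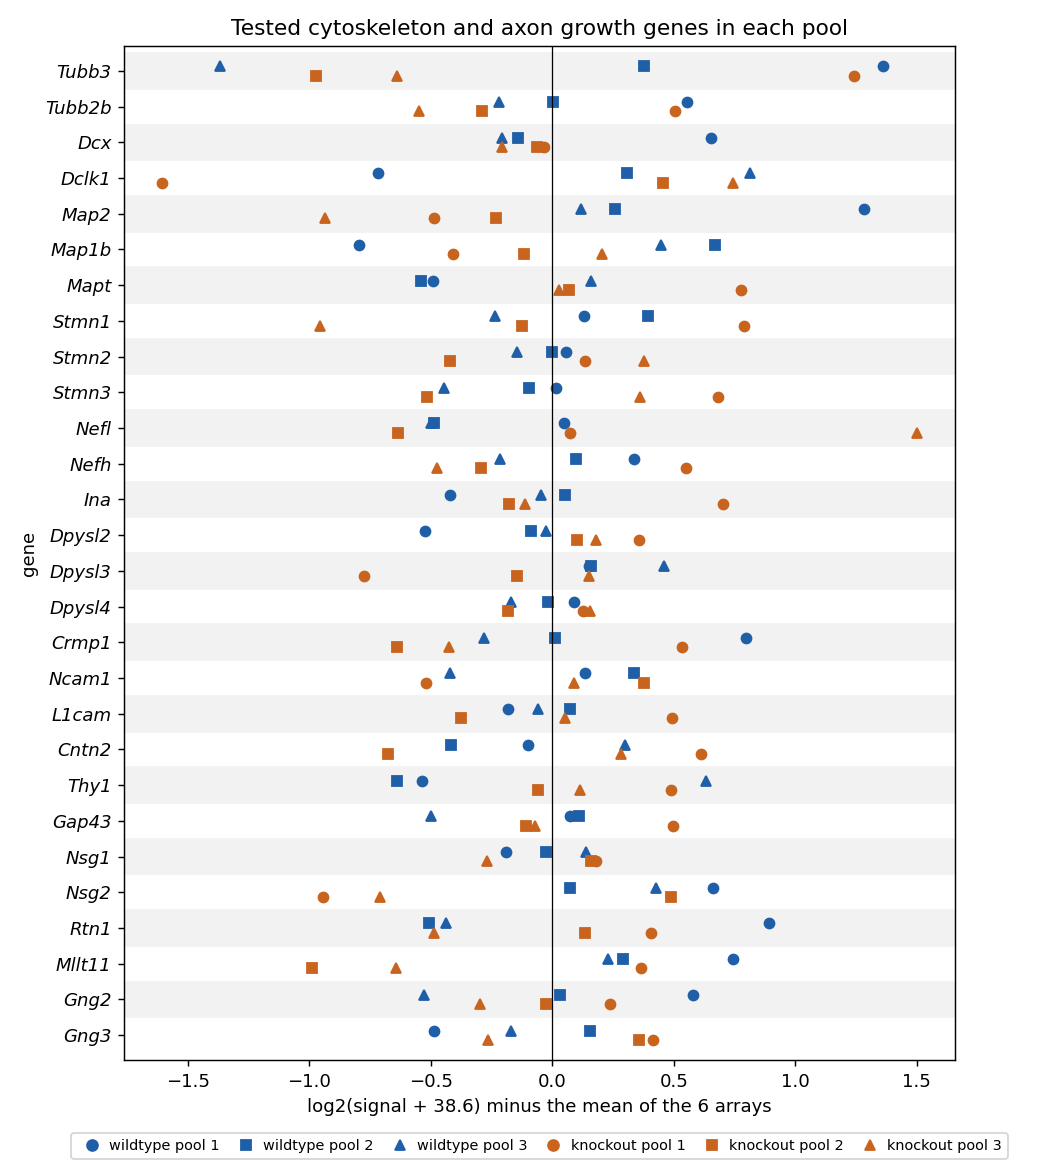
Log2(signal + 38.6) of each of the 28 tested genes in each pool, as the difference from the mean of the 6 arrays (horizontal axis); colours give the genotype and symbols the pool number. Circles, the pools numbered 1, lie at the right for Tubb3, Tubb2b and Crmp1 in both genotypes and at the left for Dclk1.

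Within numbers 1, 2 and 3 the median difference of the 28 genes was 0.06, −0.22 and −0.07, beside 0.11, 0.00 and −0.06 for all genes tested. Knockout was lower for 12, 18 and 17 of the 28, beside 5664, 6354 and 6957 of the 12797 genes tested. It was lower within all 3 numbers for 5 genes (Tubb2b, Map2, Dpysl3, Crmp1 and Mllt11), 17.9% beside 15.4% of all genes, and higher within all 3 for Dpysl2 alone, 3.57% beside 14.9%. The other 22 had mixed signs. With the replicate number as a block, limma gave an unadjusted p under 0.05 for 2 of the 28, Map2 and Mllt11, both lower, beside 3.16% of all genes lower and 3.08% higher, and called 0 of the 28 after adjustment. With array weights, which put nearly all weight on the pools numbered 2, limma called 22.9% of all genes and 6 of the 28, Tubb3, Map2, Map1b, Crmp1 and Mllt11 lower and Mapt higher.

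**Figure D4:**
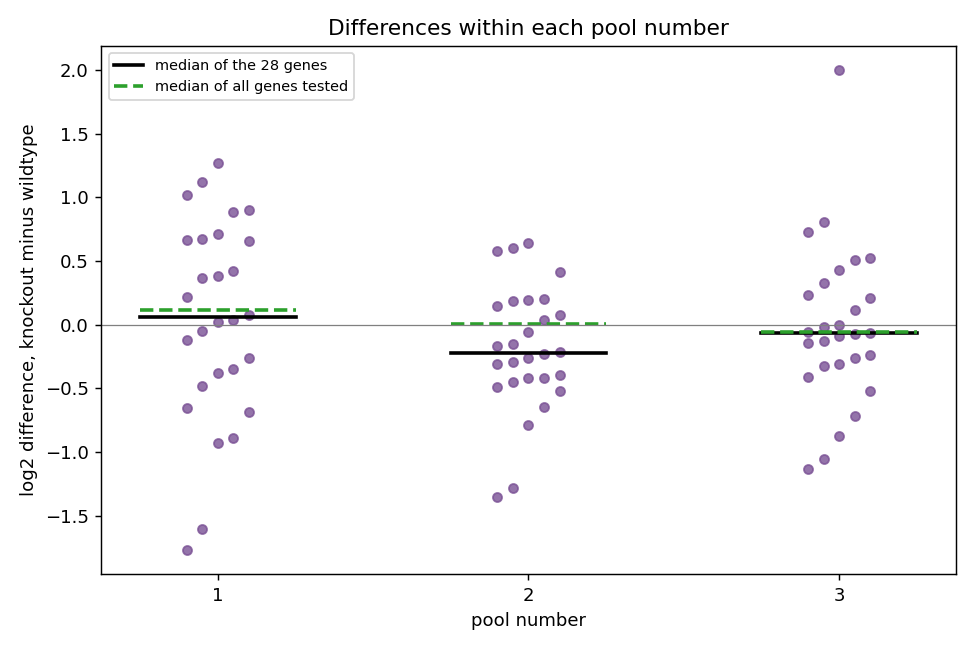
Log2 difference between the knockout and the wildtype pool of the same number (vertical axis) for each of the 28 tested genes, by pool number (horizontal axis); the solid line is their median and the dashed line that of all genes tested. The medians are 0.06, −0.22 and −0.07, and single genes run from −1.77 to 2.00.

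Further genes of the neuronal cytoskeleton, axon adhesion and axon guidance were taken from a separate list of 157, of which 129 were tested. In limma 0 were called in either direction, beside 0.00781% of all genes tested. At an unadjusted p under 0.05 in limma, 2 were lower and 2 higher, beside 1.37% and 1.98% of all genes. Counts of 2 and 2 among 129 are near those shares. Of the 129, 71 had a lower mean, 55% beside 46.8% of all genes, and the median log2 difference was −0.05, beside 0.03. Map7d2, a microtubule-binding protein related to ensconsin, had signals of 691, 523 and 285 in wildtype and of 122, 246 and 177 in knockout. Its groups did not overlap, and its log2 difference was −1.25 (SE 0.37; limma adjusted p = 0.998). Pak3, a kinase of actin dynamics, had 997, 693 and 669 against 467, 534 and 427, a difference of −0.66 (SE 0.27). Higher values were seen for Kif21b, a neuronal kinesin, with 181 to 298 in wildtype and 352 to 582 in knockout (0.68, SE 0.30). Epb41l3, which links membrane proteins to spectrin and actin, had 749 to 1306 and 1170.4 to 2645 (0.88, SE 0.37).

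By family, the median difference was −0.12 for 20 tubulins, kinesins and dyneins, −0.12 for 19 microtubule-associated proteins, −0.10 for 28 actin and growth cone proteins, −0.21 for 16 adhesion molecules and 0.03 for 34 guidance ligands and receptors. It was 0.39 for 12 spectrins, ankyrins and scaffold proteins, of which 9 had higher and 3 lower means, beside 46.8% of all genes lower. That family includes Vim and Nes, which are also expressed by cells other than neurons. Markers of such cells also had higher means in knockout, for 9 of 9 tested fibroblast genes (median 0.22), 7 of 7 of pericytes and smooth muscle (0.57), 6 of 6 of the Schwann and oligodendrocyte lineage (0.57), 8 of 9 of macrophages (0.51) and 7 of 8 of endothelium (0.16). The neural progenitor list, which holds Vim and Nes, ran both ways. Of its 7 tested genes 4 had lower and 3 higher means (median −0.36). The part of all these cells in the spectrin family values was not tested. Of the same family Sptbn1, a beta-spectrin, had 19166 to 20995 in wildtype and 26664 to 27715 in knockout, a log2 difference of 0.44 (SE 0.27; limma adjusted p = 0.998). In other families Cntn4, Negr1, Robo2, Clasp1 and Kif5c had differences of −0.62, −0.92, −0.66, −0.55 and −0.57, and Efna1 and Basp1 of 0.92 and 0.58. Of these 8 genes 0 passed the threshold.

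Markers of neurons from nearby brain were measured beside these genes. Summed signals of inhibitory neuron markers, 7 of 8 listed, lay between 585 and 1045 in wildtype and between 946 and 1512 in knockout. Their best known member, the glutamate decarboxylase gene Gad1, had 96.7 to 142 in wildtype and 229 to 426 in knockout. The other glutamate decarboxylase gene, Gad2, overlapped, with 81.8 to 167 and 129 to 147. All 4 tested genes of the list had higher means in knockout, but only Gad1 was without overlap. Sums for cortex neuron markers, 7 of 9, were 1247 to 2245 and 1144 to 1773. Those of ganglion neuron markers, 7 of 9, were 704 to 1042 and 703 to 1130. Habenula and thalamus markers, 11 of 11, summed to 19006 to 27527 and 19393 to 26528. Midbrain and cerebellum markers, 12 of 12 and carried mainly by Zic1, summed to 24070 to 29933 and 28424 to 41736, although 5 of the 7 tested were lower in knockout. The engrailed gene En2 of that list had signals of 3390, 1556 and 1317 in wildtype and 249, 715 and 695 in knockout without overlap. It was highest in wildtype pool 1, as Map2 was. Markers of the list ran both ways in that pool. Reln and Cbln1 were also highest there, at 2434.5 and 738, while Zic1 was lowest there, at 17839, and highest in knockout pool 1, at 37886. En1, Gata3 and Sox14 of the midbrain and cerebellum list stayed at or below 37.2 in each pool. Pinealocyte markers, 14 of 14, summed to 47274 to 65765 and 40550 to 58613. Of the 13 tested, 9 had a lower and 4 a higher mean in knockout, with a median log2 difference of −0.40, beside 46.8% of all genes lower. The part of such cells in the cytoskeleton and axon growth values was not tested.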

How the data were processed

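The deposited table holds the intensity of 45037 probe sets on 6 arrays on a linear scale, already scaled by the authors to a trimmed mean of about 500 per array. GCOS is named without a version in the submitters' processing notes, and the labels do not name the signal algorithm. No normalization was added. Values are log2(signal + 38.6), the offset being the 20th percentile of all values. Probe sets below the 40th percentile of the mean, a signal of about 105, were left out, which left 12797 genes.

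Genotypes were compared in limma 3.58.1 under R 4.3.3 (lmFit and eBayes with trend, two-sided, with 4 residual degrees of freedom, Benjamini-Hochberg over all genes tested, threshold 0.05). Intervals are 95% intervals of that fit. The fit was also run on simulated data with independent noise and planted differences larger than those of the cytoskeleton and axon growth genes. That run does not cover smaller differences or variation shared by pools of the same number. With 3 pools against 3 an exact permutation test cannot go below p = 0.1, so none was run. Precision is limited by having 6 arrays (median SE 0.345).

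The genes and lists were chosen with earlier results of these data known. All 33 genes were to be named, with Neurod1 and up to 2 genes of smallest p per further family, and markers of other cells that move with the genes. Same-numbered pools carry the same date in the labels, and, as deviations from their group, correlated across genes at 0.316, 0.253 and 0.360, so they were treated as paired in the fit with the replicate number as a block. Alternatives changed the offset, normalization, filter, probe set choice, variance model, array weights and pools included. Promoter windows came from RefSeq, with 17 of 33 genes matched. Nothing shows whether pools with separate numbers came from separate litters. The p-values weigh the difference between genotypes against the spread between pools, which may not be that between litters. Detection calls and scanner files were not analysed here.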

Additional observations from a re-analysis of the deposited data

How the results depend on the processing

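The 28 tested genes held 0 calls in limma under every alternative except array weights, where 6 were called at an adjusted p under 0.05 (Tubb3, Map2, Map1b, Crmp1 and Mllt11 lower, Mapt higher). There 11.1% of all genes were called lower and 11.8% higher, 2932 in all, and 37 of the 129 further genes. Its weights were 7.05 and 6.20 for both pools of number 2, with 0.541 the highest elsewhere, its iteration stopped before its tolerance, and the median of the 28 genes was −0.16. With the replicate block no gene of the 28 was called, while the count at an unadjusted p under 0.05 rose from 1 to 2. Leaving out 1 pool kept the median between −0.08 and 0.09 and the number of lower genes between 11 and 17. The count of genes called over the whole table was 0 with no offset, and 0 without both pools numbered 1, 2 or 3; leaving out 1 pool gave 0 to 1. Of the 28 genes, 9 kept the sign of their difference under all alternatives tried (Tubb2b, Map2, Mapt, Dpysl2, Dpysl3, Crmp1, Thy1, Mllt11 and Gng3) and 19 changed it in at least 1. The cause of these changes was not tested. Among the 9, Tubb2b and Crmp1 came as near 0 as −0.00 and −0.04, and Thy1 and Gng3 as 0.03 and 0.05. Each of these genes has 1 probe set, so the mean of probe sets could not move its difference. With the mean of a gene's probe sets, Map2 had an unadjusted p above 0.05 in limma, and 0 of the 28 were below it. Of 24 other probe sets past the filter, 15 had the sign of the chosen one and 9 the opposite sign.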
